A study of Mus musculus with 4 samples.

Results

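Mesothelin and the membrane mucins were described in freshly isolated mouse peritoneal mesothelial cells, the single cell layer that lines the body cavity. The 6 genes were taken by symbol, Msln, Muc16, Muc1, Muc4, Muc13 and Muc20, and all 6 were found among the 48425 genes of the deposited table. The 4 libraries came from 4 C57BL/6 mice aged 10 weeks, 1 library per animal, in 1 group with no treatment and no genetic change named in the labels beyond a wild-type column name. Cells were detached from the cavity with trypsin and sorted as CD45-negative and positive for podoplanin (Pdpn) and Gpm6a, so none of the 6 genes was used for the sort. Column totals ran from 4090224 to 4569578 estimated counts. Levels are depth-scaled counts (CPM, the column value over the column total), given as mean ± SD over 4 animals unless stated. Ranks by mean and orders within lists use CPM not divided by transcript length.

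Mesothelin is a glycoprotein held on the cell surface by a glycosylphosphatidylinositol (GPI) anchor. It is made as a precursor that is cut by the convertase furin, and its retained part binds Muc16, the mouse counterpart of the ovarian tumour antigen CA125. Membrane mucins are transmembrane proteins with long repeats rich in serine and threonine, which carry dense O-linked glycans and form a slippery, charged coat on epithelial surfaces. Mesothelium makes both mesothelin and Muc16, whereas Muc1, Muc4, Muc13 and Muc20 are best known from glandular, intestinal, airway and kidney epithelium.

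Msln and Muc16 were the abundant members. Muc1 had 18.4 estimated counts in animal 1, 2.80 in animal 4 and none in the others. Muc13, Muc4 and Muc20 were at or below the level of counting noise. Of the 6 genes, 2 lay above 1 CPM in the quasi-likelihood test of edgeR, as did 24.7% of all genes in the table. Muc4 and Muc20, 2 of the 6, were listed at 0 in all 4 libraries, against 52.6% of all genes. The median over the 6 genes of the mean level was 0.621 CPM, and the median over the whole table was 0 CPM. With 6 genes these shares are counts only and show nothing particular to the family. The whole table also holds small RNA genes, antisense genes and pseudogenes, so its 24.7% is not a share of protein-coding genes. No list below was tested against it.

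RefSeq promoter windows of GRCm38.p6, from 250 bases before to 50 bases after the annotated start, were matched by symbol for 5 of the 6 genes, all but Msln. The windows of Muc16 and Muc1 are shown because they set the abundant mucin beside the best-known epithelial mucin, which was represented by few reads here. Both are printed 5′ to 3′ on the gene's own strand, and capitals mark matches to the motifs named below. The Muc16 window is chr9:18674554-18674853 on the minus strand and the Muc1 window is chr3:89228806-89229105 on the plus strand.
Muc16: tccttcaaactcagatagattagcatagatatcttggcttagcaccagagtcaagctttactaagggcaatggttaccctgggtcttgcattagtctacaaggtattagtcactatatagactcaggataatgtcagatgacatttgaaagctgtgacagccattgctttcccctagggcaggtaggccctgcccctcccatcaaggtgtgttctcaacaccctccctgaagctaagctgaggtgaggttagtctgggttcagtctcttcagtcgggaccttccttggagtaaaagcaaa
Muc1: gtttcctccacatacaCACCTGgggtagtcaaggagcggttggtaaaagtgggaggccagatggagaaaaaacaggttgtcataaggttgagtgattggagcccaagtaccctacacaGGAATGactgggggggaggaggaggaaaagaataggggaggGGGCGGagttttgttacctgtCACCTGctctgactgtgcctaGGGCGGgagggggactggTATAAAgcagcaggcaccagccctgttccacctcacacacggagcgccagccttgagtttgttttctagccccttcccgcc

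Both strands of each window were searched for a TATA box (TATAAA), a GC box (GGGCGG), the TEAD motif (GGAATG), the AP-1 motif (TGANTCA) and an E-box (CACCTG). The Muc16 window held none of these letters and 1 CpG, and 5.43% of 32851 windows held fewer CpG. The Muc1 window held 6 CpG, where the median over all windows was 7. It had 1 TATA box beginning 31 bases before the start, 2 GC boxes, 1 TEAD motif and 2 E-boxes. Among all windows 13.6% held the TATA box, 35.7% the GC box, 14.7% the TEAD motif, 7.81% the AP-1 motif and 20.2% the E-box. Of the other 3 mucins, the Muc4 window had a TATA box and a TEAD motif, the Muc20 window an E-box, and each of the 2 windows of Muc13 an AP-1 motif. These matches describe letters in short windows and do not show binding.

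Msln lies on chromosome 17 at 25748613 to 25754378 on the minus strand (GENCODE M21, GRCm38), with 16 exons in its longest coding transcript. Its level was 2569.9, 2409, 1682 and 2369 CPM in animals 1 to 4, or 2257 ± 393 CPM, which placed it 48th of all genes by mean. Animal 3 was the lowest, and the highest animal exceeded it 1.53 times. Msln lay above 1 CPM (adjusted p = 6.85e-40 by edgeR's quasi-likelihood test). Of the 31-base words in its transcripts, 3.64% also occur in transcripts of 2211 other genes, and the rest are unique to it.

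Muc16, the giant transmembrane mucin that mesothelin binds, lies on chromosome 9 at 18495455 to 18674530 on the minus strand. It had 208, 284, 220.4 and 154 CPM in animals 1 to 4, or 217 ± 53.5 CPM, and ranked 745th by mean. Animal 2 was the highest and animal 4 the lowest, with a ratio of 1.85 between them. Muc16 lay above 1 CPM (adjusted p = 2.93e-29 by edgeR's quasi-likelihood test). None of its 25731 words of 31 bases occurs in a transcript of another gene. The nearest listed genes, Mbd3l1 and the small nuclear RNA gene Gm24546, and the misc RNA gene Gm25295 inside it, were all listed at 0 in every library.

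Muc1, the cell-surface mucin of glandular epithelium on chromosome 3 at 89229057 to 89233381, was assigned 18.4, 0, 0 and 2.80 estimated counts in animals 1 to 4. These correspond to 4.04, 0, 0 and 0.684 CPM, a mean of 1.18 ± 1.93 CPM that did not pass the test (adjusted p = 1 by edgeR's quasi-likelihood test). Without animal 1 this mean was 0.228 CPM. For a gene listed at 0, the upper limit is 3 counts, or 0.657 to 0.733 CPM in a single library and 0.171 CPM over the group. Such limits count reads, not molecules, and cover counting error alone.

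Muc13, a transmembrane mucin of the gut on chromosome 16 at 33794037 to 33819934, had 1.01 counts in animal 4 and none in the other 3 animals. Muc4, known as a partner of the receptor Erbb2, and Muc20, known as a partner of the receptor Met, were listed at 0 in all 4 libraries. Muc4 (chromosome 16, 32735886 to 32782391, plus strand) and Muc20 (32777419 to 32797435, minus strand) overlap at their 3′ ends by 4973 bases and share 539 words of 31 bases. Reads from that overlap could not be assigned to either gene without strand, and no source used here gives the strand setting. At this depth a count of 0 leaves a level of Muc4 or Muc20 of up to 0.171 CPM over the group possible.

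**Figure D1:**
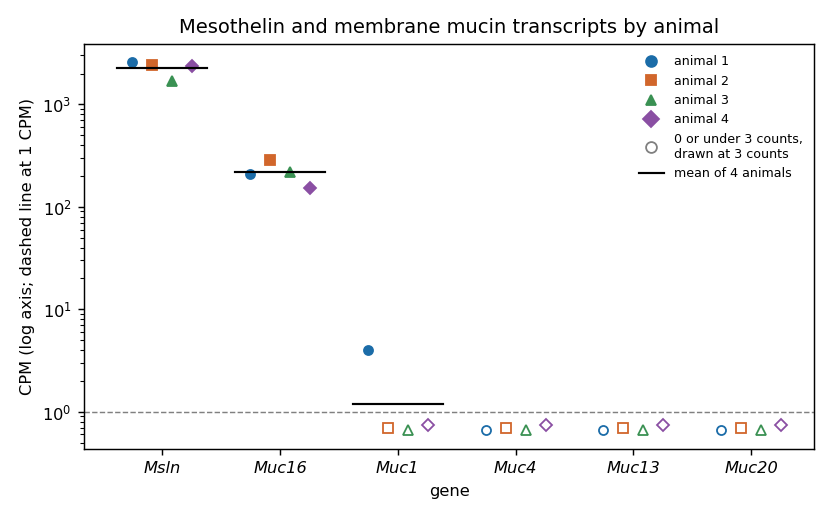
CPM of each gene in each animal on a log axis, with a bar at the mean of 4 animals and open symbols for a value of 0 or under 3 counts, drawn at 3 counts. Msln lies between 1682 and 2569.9 CPM and Muc16 between 154 and 284 CPM, while Muc1 rises over 1 CPM in animal 1 and the other mucins stay at the limit.

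The levels of the members were compared with each other per kilobase of transcript, as the median length of the annotated protein-coding transcripts. The order was Msln at 1083 ± 189, Muc16 at 49.2 ± 12.2, Muc1 at 0.526 ± 0.861 and Muc13 at 0.0209 ± 0.0417 CPM per kb, with Muc4 and Muc20 at 0. Msln per kb exceeded Muc16 by 26.0, 17.9, 16.1 and 32.5 times in animals 1 to 4, a log2 difference of 4.47 ± 0.47 (SD, n = 4). The ranges of both genes did not overlap, and Msln was higher in 4 of 4 animals (exact two-sided sign-flip permutation p = 0.13, the smallest that 4 animals allow). The ratio was widest in animal 4, where Muc16 was lowest, and narrowest in animal 3, where Msln was lowest.

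The size of this gap depended on the Muc16 gene model. Its 4 coding transcripts run from 1035 to 25437 bases with a median of 4399.5, whereas those of Msln run from 2044 to 2165 bases. Divided by the longest coding transcript, Muc16 stood at 8.52 ± 2.10 and Msln at 1043 ± 182 CPM per kb, a log2 difference of 6.93 ± 0.47 with ratios of 89.6 to 181. Which transcripts took the reads cannot be read from values summed per gene.

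**Figure D2:**
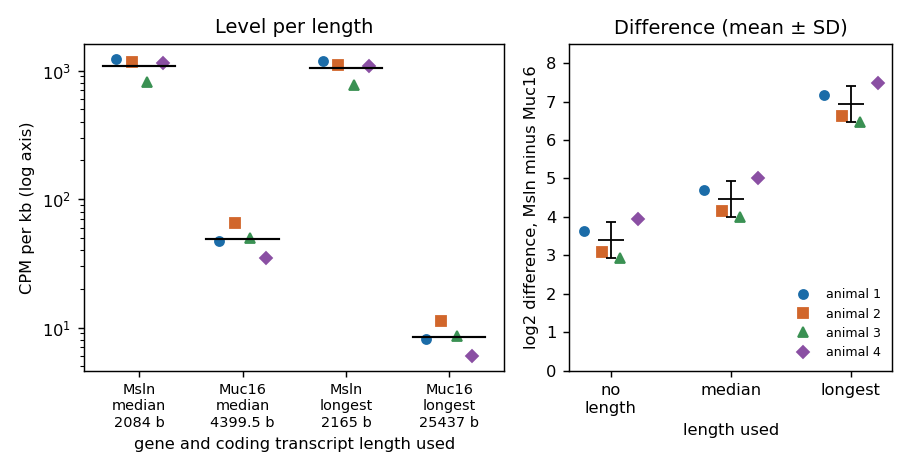
Left, CPM per kb of Msln and Muc16 in each animal for 2 choices of transcript length on a log axis, with bars at the mean; right, the log2 difference of Msln minus Muc16 in each animal with mean ± SD. Msln is above Muc16 in all 4 animals under each choice, and the mean difference moves from 3.40 with no length to 4.47 and 6.93.

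Further down the order, Muc16 exceeded Muc1 in 4 of 4 animals (exact two-sided sign-flip permutation p = 0.13). Muc1 and Muc13 were not separable, since Muc1 was higher in 2 of 4 animals and both were at 0 in the remaining 2 (exact permutation p = 0.5). Muc13 lay under the limit of 3 counts over the group, so its order against Muc4 and Muc20 is not defined. Against the limit that 3 counts over the group set, pooled Muc16 per kb by median lengths was at least 1327-fold higher than Muc4. It was at least 866-fold higher than Muc20. By the longest transcripts these bounds were 566-fold and 184-fold. The corresponding bounds for Msln by median lengths were 28996-fold over Muc4 and 18925-fold over Muc20. Each bound holds only for the lengths it uses. The shortest coding transcript of Muc4 has 1190 bases, and such a length would raise its limit and lower the bounds.

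Msln and Muc16 were highest and lowest in different animals. On the scale of log2(CPM + 0.5), Msln deviated from its mean by 0.21, 0.11, -0.41 and 0.09 in animals 1 to 4, and Muc16 by -0.02, 0.42, 0.06 and -0.46. The SD of Msln was 0.28, and 68.1% of the 91 genes within 2-fold of its mean level had a smaller one. The SD of Muc16 was 0.36, and 80.0% of 1271 such genes had a smaller one. Both members thus stood above the median spread of genes of their level, which was 0.22 in each set.

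The genes whose deviations over the 4 animals lay closest to those of Msln were Pmm2, a phosphomannomutase, Yap1, the Hippo pathway coactivator, and Sirt5, a mitochondrial deacylase. Their root mean square differences were 0.00716, 0.0203 and 0.0237 on the log2 scale, at mean levels of 67.0, 26.3 and 24.2 CPM. Closest to Muc16 were the GTPase gene Rab8b, the predicted gene Gm15210 and the RNA-binding protein gene Hnrnpa3, at 0.0271, 0.0404 and 0.0415. With 4 animals such closeness is common. Of 8791 genes with a mean of 10 CPM or more, 116 lay within 0.1 of Msln and 70 within 0.1 of Muc16. Msln and Muc16 themselves differed by 0.408, and 4699 genes were closer to Msln than Muc16 was.

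Muc16 accounted for nearly all reads of the listed mucins. The table lists 13 genes with a Muc number, and Muc16 held 97.7% to 99.8% of their estimated counts per animal and 99.1% over the group, as counts not divided by length. The other 12 together had 22.6, 4.65, 2.39 and 5.73 counts in animals 1 to 4. Of the 6 other transmembrane mucins looked for, Muc12, Muc17 and Muc21 were not listed by symbol, so nothing is known of their reads. Muc3 had 1.91 counts in all, Muc15 had 0.741 and Muc3a had none. Among the secreted mucins that build mucus gels, Muc6 of the stomach was the highest at 0.908, 0.238, 0.525 and 0 CPM, Muc2 of the colon had 1.92 counts and Muc5b had 0.962. Muc5ac and Muc19 had none. In the edgeR test, which 24.7% of all genes passed, 0 of these 3 listed transmembrane and 0 of these 5 secreted mucins lay above 1 CPM.

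Mesothelin has a small set of relatives. Mslnl, the mesothelin-like gene, lies next to Msln on the opposite strand with a gap of 282 bases between their ends. It had 1.06, 0, 0 and 1.67 CPM in animals 1 to 4. Both animals with a value also had Muc1 reads, though Muc1 in animal 4 was under 3 counts. The inner ear gene Strc, which encodes stereocilin, had reads in animal 2 only, at 1.37 CPM, and Otoa, which encodes otoancorin, had none. None of the 3 passed the edgeR test, which 24.7% of all genes passed, so Msln was the only one of these 4 genes above 1 CPM.

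Sialomucins, smaller membrane proteins with mucin-type glycans, had 6 of 11 genes above 1 CPM, beside 24.7% of all genes. Pdpn led with 1094 ± 186 CPM, a level that describes the sort gate, and without it 5 of 10 passed. Cd34, an adhesion and stem cell antigen, followed at 480 ± 171 CPM and Cd164, the sialomucin endolyn, at 205 ± 52.7 CPM. Cd34 was highest in animal 2 and lowest in animal 4, as Muc16 and the summed fibroblast list given below were. Pdpn and Cd164 were also highest in animal 2, but Pdpn was lowest in animal 1 and Cd164 in animal 3. Spn, the leukocyte sialomucin CD43, had no count. The median of the list was 9.68 CPM.

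**Figure D3:**
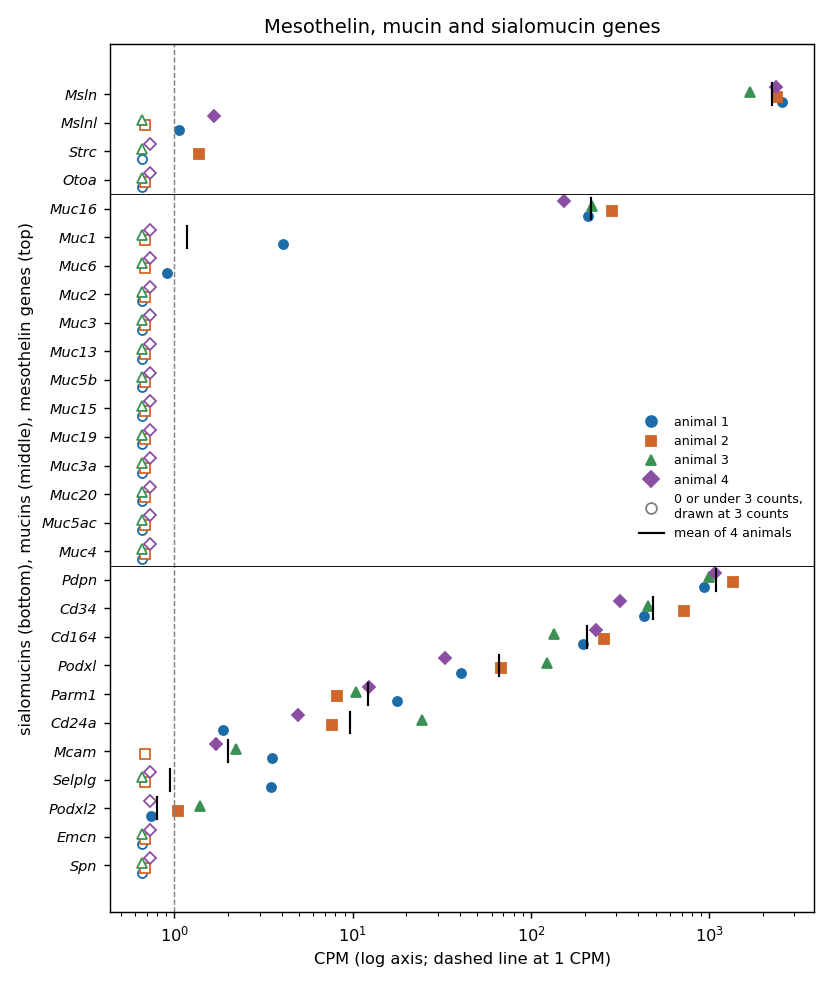
CPM in each animal on a log axis for Msln and its relatives (top), the 13 Muc genes (middle) and the sialomucins (bottom), with bars at the mean and open symbols drawn at 3 counts. In the mucin block Muc16 alone lies over 1 CPM in all 4 animals. In the bottom block 6 of 11 sialomucins passed the test, beside 24.7% of all genes.

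The genes on either side of the members were read as well. Heg1, a mucin-like transmembrane protein known as an antigen of mesothelioma, lies 22460 bases from Muc13 and stood at 249 ± 98.6 CPM, and Itgb5, an integrin subunit on the other side, at 9.71 ± 2.53 CPM. Muc13, with 1.01 counts, thus lay between 2 genes that passed the test. Narfl next to Msln had 24.7 ± 6.59 CPM. Trim46, whose nearest end is 795 bases from Muc1, had 1.12, 0, 1.71 and 0 CPM. Mir92b on the other side of Muc1, Gm15657 antisense to Muc13, and Gm9556 and Gm26769 beside Muc4 and Muc20 were listed at 0.

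Mucin-type glycans are started by a family of GalNAc transferases, and 10 of the 18 listed lay above 1 CPM, beside 24.7% of all genes. Galnt6 had 47.9 ± 19.2 CPM, Galnt15 39.2 ± 9.52 CPM and Galnt1 36.5 ± 7.53 CPM. Galntl5 and 4 others of the family had no count. The median of the list was 3.96 CPM. Of the 13 enzymes that extend or sialylate these glycans, 6 passed, beside the same 24.7%. The core 2 enzyme gene Gcnt1 stood at 73.5 ± 32.2 CPM, the sialyltransferase genes St3gal1 at 59.2 ± 17.1 CPM and St3gal2 at 25.9 ± 9.08 CPM. C1galt1, which makes the core 1 structure, had 19.6 ± 9.96 CPM, and its chaperone gene C1galt1c1 28.5 ± 6.28 CPM. The gut-type enzymes were at or near 0, with no count for Gcnt3 and 1.92 counts for B3gnt6, and St6galnac3 had none. The median of this list was 0.238 CPM.

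Among convertases, sheddases and related proteases, 9 of the 9 listed lay above 1 CPM, beside 24.7% of all genes. Their median was 48.1 CPM. Whether they cut mesothelin or mucins in these cells was not tested. Furin, which cuts the mesothelin precursor, had 47.7, 60.0, 51.4 and 39.3 CPM in animals 1 to 4. Bace2 was the highest of the listed proteases at 170 ± 27.0 CPM, followed by Adam10 at 128 ± 28.2 CPM and Mmp14 at 68.5 ± 25.4 CPM. Adam17, the sheddase of many surface proteins, had 45.2 ± 4.19 CPM, and the convertase gene Pcsk7 was lowest at 14.3 ± 5.71 CPM. All 5 subunits of the transamidase that attaches GPI anchors passed, beside the same 24.7%. Pigk, its catalytic subunit, had 67.3 ± 3.67 CPM, and Gpaa1, Pigs, Pigu and Pigt had 33.0, 31.1, 30.0 and 29.6 CPM.

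All 12 genes of receptors, cytoskeletal linkers and lectins listed as partners of these proteins lay above 1 CPM, beside 24.7% of all genes. Their median was 76.3 CPM. Lgals1 and Lgals3, galectins that bind glycans on the cell surface, stood at 1147 ± 574 and 552 ± 44.5 CPM. Ezr, the linker ezrin of microvilli, had 742 ± 132 CPM. Met and Erbb2, the receptors linked to Muc20 and Muc4, had 53.7 ± 17.6 and 10.8 ± 2.84 CPM, beside mucin genes at 0. Egfr had 75.5 ± 13.2 CPM.

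**Figure D4:**
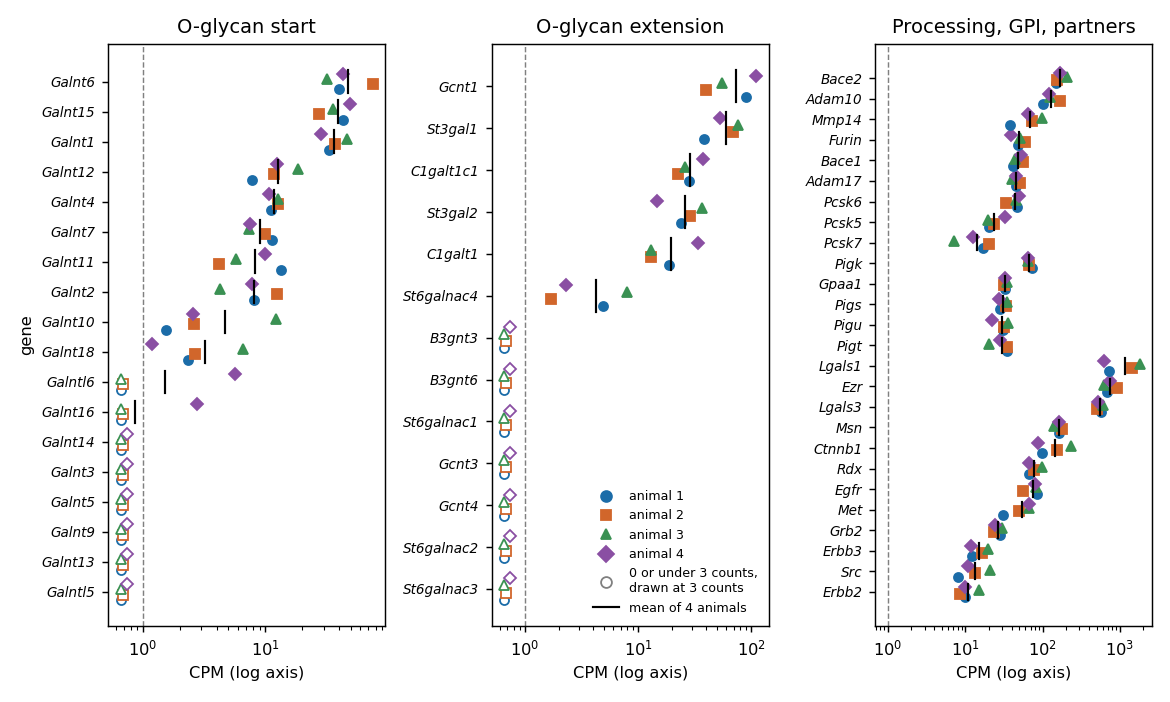
CPM in each animal on log axes for enzymes that start mucin-type glycans (left), enzymes that extend them (middle) and protease, GPI transamidase and partner genes (right), with bars at the mean and open symbols drawn at 3 counts. In the left panel 10 of 18 genes and in the middle panel 6 of 13 passed the test, beside 24.7% of all genes. Every gene of the right panel lies above 1 CPM.

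Marker lists were set beside these values. Of 16 mesothelial markers 15 passed the edgeR test, led by Upk3b at 4135 ± 236, Krt19 at 2299.6 ± 954 and Upk1b at 2225 ± 241 CPM, and Calb2 had no count. Pdpn and Gpm6a of this list were fixed by the gate, and without them 13 of 14 passed, with a summed level of 12613 to 14626 CPM. Of 14 transcription factors of glandular epithelium 2 passed, Klf4 at 328.5 ± 63.7 CPM and Klf5 at 7.29 ± 3.82 CPM, Elf3 had 0.434 ± 0.762 CPM, and 8 had no count, Ovol1 among them. In the intestinal list 3 of 10 passed, Lgals4 at 20.05 ± 6.38, Slc26a3 at 19.0 ± 13.3 and Lgr5 at 4.02 ± 5.05 CPM, while Vil1, Alpi and Tff3 had no count. In the urothelial list 2 of 8 passed, Krt14 at 193.5 ± 140 and Gata3 at 7.38 ± 4.79 CPM, while Upk2 and Upk3a had none. Each of these shares stands beside 24.7% of all genes that passed and 52.6% listed at 0. In the fibroblast list 8 of 9 passed, with a summed level of 4069, 6807, 5976 and 3405 CPM in animals 1 to 4. Of these genes Col3a1 at 2741 ± 917, Col1a2 at 1141 ± 360 and Col1a1 at 1039.9 ± 369 CPM made up 97.2% of its summed mean. The other 6 genes of that list, with Pdgfra at 25.5, Dpt at 7.97 and Pi16 at 1.55 CPM, summed to 105 to 204 CPM per animal, and Pi16 did not pass. The fibroblast sum and Muc16 ranked the animals 2, 3, 1 and 4 from highest to lowest, and Msln did not. Of the passing mesothelial markers only Krt19 had this order, whereas Upk3b (4448, 3920, 3990 and 4184 CPM) was lowest in animal 2. The sum of the mesothelial list, Pdpn and Gpm6a included, was highest in animal 2 and lowest in animal 1. The part of fibroblasts in the levels of Msln and Muc16 was not tested. In such bulk RNA fewer cells of a type and less RNA per cell cannot be told apart.

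The uneven Muc1 reads were set beside lists of other cell types, of which leukocytes were sorted against by CD45. The summed level of the reproductive tract and duct list was 22.3, 2.71, 9.46 and 18.7 CPM in animals 1 to 4. This sum was highest in animals 1 and 4, which had 18.4 and 2.80 Muc1 counts. Beside 24.7% of all genes, 2 of the 10 in this list lay above 1 CPM. These were the chloride channel gene Cftr at 14.8, 0.207, 2.79 and 11.1 CPM and Wfdc2 at 4.36, 0.165, 3.34 and 5.45 CPM. Cftr made up the largest part of the sum in animals 1 and 4. Cdh1 of the same list was highest in animal 3, at 0.284, 0.420, 1.21 and 0 CPM in animals 1 to 4. Foxj1 and 3 others of the list had no count and Pax8 had 0.966 counts. Epcam, a defining gene of most glandular epithelium, had 0.633, 1.11, 1.28 and 1.19 CPM. These were 2.89, 4.85, 5.83 and 4.86 counts in animals 1 to 4, too few to order the animals. The leukocyte list summed to 56.3, 42.0, 60.9 and 52.1 CPM, with 2 of 13 genes above 1 CPM, beside the same 24.7%. These were Csf1r at 34.5 ± 5.22 and Cd68 at 12.5 ± 5.23 CPM, both highest in animal 3, and Itgam had no count. Ptprc, which encodes CD45, had 3.05, 0, 0.187 and 0 CPM, and the myeloid gene Lyz2 had 5.73, 1.58, 0.868 and 0.722 CPM. Of the B cell genes, Cd79a had 5.66, 0.442, 0 and 0 CPM, highest in animal 1, and Ms4a1 had 0.560, 0.518, 0.453 and 1.42 CPM, highest in animal 4. The part of these cells in the Muc1 reads was not tested.

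**Figure D5:**
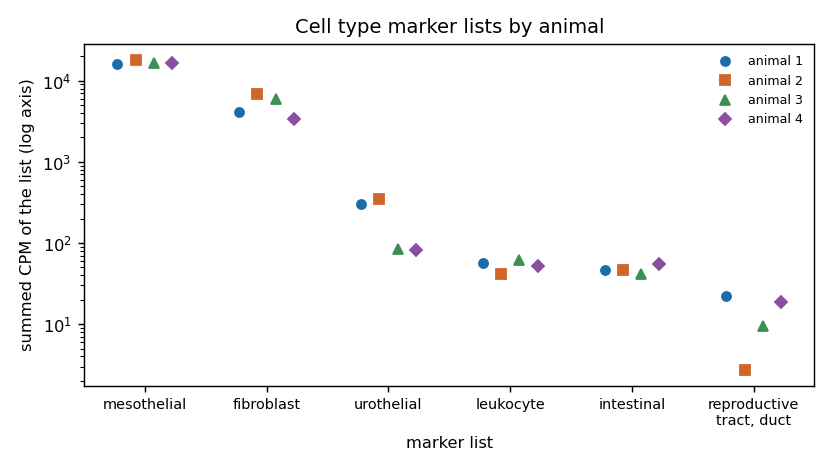
Summed CPM of 6 marker lists in each animal on a log axis. The mesothelial list, Pdpn and Gpm6a included, lies at 16103 to 18213 CPM in all 4 animals and the reproductive tract and duct list spreads from 2.71 CPM in animal 2 to 22.3 CPM in animal 1.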

How the data were processed

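RNA sequencing of sorted mesothelial cells gave 1 table with 4 columns, all of them used, matched to animals by the column names in the sample descriptions. What the authors deposited are estimated counts by gene symbol. The unit was read from the values, since 99.7% to 99.95% of nonzero values per column were more than 1e-06 from a whole number. Per the submitters' processing notes the tools were limma 3.38.3, edgeR 3.24.3 and kallisto 0.43.1 with build GRCm38.p5, no role being stated. No source used here says how transcripts were summed to genes.

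CPM are deposited estimated counts over the column sum. For the test, counts were rounded and fitted with edgeR 4.0.16 in R 4.3.3, with column sums as library sizes. Genes with a rounded count of 0 in every library were not fitted. They were set as not passing and kept among the 48425 genes of the adjustment. No other filter was used. The one-sided quasi-likelihood F test asked whether the level lay above 1 CPM, with Benjamini-Hochberg adjustment over all genes and a threshold of 0.05. The packaged function takes no design with an intercept only, so the statistic was computed from deviances and checked on simulated data. Alternatives used TMM, DESeq2 1.42.0, limma 3.58.1 with voom weights, a count minimum of 10 over the 4 libraries, a threshold of 5 CPM, unrounded counts and leaving out each animal. Differences per kb used log2(CPM per kb + 0.1) within an animal.

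Pairs of libraries correlated at Pearson's r of 0.912 to 0.934 across 14922 genes, which are not independent replicates, and no 2 columns were alike. Positions, lengths and shared words come from GENCODE M21 on GRCm38, whose transcripts may differ from those the authors used. The members and lists were chosen with earlier results of these data known. The text names all members, the 3 highest genes and a lowest gene of each list, every gene of lists of 6 or fewer, Ptprc, the nearest listed neighbours, and the 3 genes most like Msln and Muc16. Furin, Adam17, C1galt1, St3gal2, Gcnt3, B3gnt6, Egfr, Met, Epcam, Cd79a, Ms4a1, Pdgfra, Dpt, Vil1, Alpi, Tff3, Cdh1, Pax8, Foxj1, Upk2 and Upk3a were added after their values had been seen.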

Additional observations from a re-analysis of the deposited data

Results flagged for a closer look

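In a group of 4, a gene was taken up here when the highest or lowest animal's gap to the next exceeded Dixon's critical share of the whole range for 4 values, which chance alone gives for about 5% of groups. This held for 15 of the 81 named genes with a value. Some of the 81 were named after their values were seen or for likeness to a member, so the 5% is no yardstick for this tally. Of the 15, 7 had a value in 1 library only, where the ratio is 1 by construction and that share does not apply. Among the members, Muc1 had a ratio of 0.831 through animal 1 (4.04 CPM) and Muc13 a ratio of 1 through 1.01 counts in animal 4.

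Among other mucins and relatives the ratio was 1 for Muc3, Muc15 and Strc through animal 2 and 1 for Muc5b through animal 4, each on 0.741 to 5.98 counts in all, and B3gnt6 had a ratio of 1 on 1.92 counts in animal 3. Elf3 and Krt20 had ratios of 0.895 and 0.971 through animal 2, at 1.57 and 7.37 CPM there. Animal 1 stood apart for Ptprc (0.939), Cd79a (0.922), Ovgp1 (0.936) and Pax8 (1). There Ptprc had 3.05, Cd79a 5.66 and Pax8 0.211 CPM. Ms4a1 had a ratio of 0.890 through animal 4, at 1.42 CPM. Sirt5, the only one of these with over 100 counts, had a ratio of 0.875 through a low animal 3, at 18.0 CPM. It was named for its likeness to Msln, which was also lowest in animal 3, so this low value follows from how it was chosen.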

How the results depend on the processing

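Msln and Muc16 were the 2 members above 1 CPM in the main fit and under each of the 11 alternatives of the test. The number of all genes above the threshold was 11943, with 9200 at a threshold of 5 CPM and 11494 to 12196 under the other alternatives. Leaving out each animal gave 11698 to 11843 genes. The log2 difference of Msln minus Muc16 per kb was 6.93 by the longest coding transcript and 3.40 with no division by length, against 4.47, and that of Muc16 minus Muc1 was 4.83 by the longest transcript against 7.35; both moves follow from the lengths divided by. The other 82 of 85 alternative values stayed within 1 SD of the main value, or within 1.5 times for counts, and none changed direction. Leaving out 1 of 4 animals cannot move a mean by more than 1 SD, so for levels and differences those values could not fail. Muc4 and Muc20 were at 0 in every setting. Muc1 counted as within 1 SD although its mean fell from 1.18 to 0.228 CPM without animal 1. The tally is therefore no measure of robustness. The value for Muc16 minus Muc1 also takes its size from the pseudocount where Muc1 is at 0. No paired analysis was possible because the series has 1 group and so no samples to pair between groups; differences between genes were taken within each animal. Depth limits Muc1, Muc13, Muc4 and Muc20, which lie near or under 3 counts in most libraries.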
